A study of Mus musculus with 12 samples.

Results

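Draining lymph nodes of mice lacking miR-451a were compared with those of wild-type mice 24 hours after a contact allergen was painted on the ear. The comparison rests on 6 of the 12 RNA-seq libraries of the study, 3 of the knockout (KO_DTH) and 3 of the wild type (WT_DTH), and covers all 56941 genes of the deposited table, of which 20034 had enough counts to be tested. All mice had been sensitized by 100 µl of 0.5% 1-fluoro-2,4-dinitrobenzene (DNFB, a hapten that provokes contact hypersensitivity) on abdominal skin, repeated on days 0, 1 and 2. The challenged mice then received 20 µl of 1% DNFB on the left ear on day 9, and the mandibular node was taken on day 10. The other 6 libraries (KO_se and WT_se, also 3 each) come from mice that were sensitized in the same way and sampled on day 9 without challenge. They serve here to estimate spread and to show which genotype differences were also present before the challenge. The labels give no strain, age or sex and do not state whether each library is a separate animal, so p-values measure the spread between libraries, which may be partly technical.

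miR-451a is a microRNA that is abundant in red blood cells and their precursors, and its hairpin is cut by Argonaute2 rather than by Dicer. MicroRNAs pair through their seed with messenger RNAs, mostly in the 3′ UTR, and lower the target's stability or translation. IL-17A, which the study's title names, is a cytokine made by Th17 cells, by innate lymphoid cells and by a subset of γδ T cells that responds early in allergic skin. The mandibular node lies against the salivary glands, so gland tissue can be taken with it.

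The mature miR-451a is shown because its seed (bases 2 to 8, in capitals) defines the sites looked for below. In RefSeq it lies at chr11:78073186-78073207 on the plus strand of GRCm38.p6.
miR-451a: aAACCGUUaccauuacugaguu
The matching 7-base site in a 3′ UTR reads AACGGTT, searched on the sense strand. The sites in Naaladl2 and Parva are shown because these were the only 2 of 109 differing genes with a searched UTR that held a match. The site in Psmb8, an immunoproteasome subunit, is shown as that of a reported target with an 8-base match. Capitals mark the match, which begins at base 284 of the 3′ UTR of Naaladl2, at base 2233 in Parva and at base 173 in Psmb8.
Naaladl2: atttttagaaataaAACGGTTgcgaggag
Parva: aaaatgagattaatAACGGTTtggtctct
Psmb8: tacaataaaagaaaAACGGTTatacatgt

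The knockout label could not be checked on the deleted gene, since Mir451a was not analysed here. Its neighbour in the same primary transcript, Mir144, had 0 counts in all WT_DTH libraries and 2, 0 and 1 in KO_DTH, too few to check anything. Library totals were 37526923 to 49780657 counts in WT_DTH and 36946696 to 50057998 in KO_DTH. By Xist and Ddx3y, replicate 1 was male in both groups and replicates 2 and 3 were female, so sex was balanced. A list of 23 salivary gland genes took 2.34, 3.37 and 2.08% of counts in WT_DTH and 9.05, 9.58 and 4.18% in KO_DTH. The list as a whole thus took a larger share in every knockout library than in any wild-type library (mean 7.60 ± 2.98% against 2.60 ± 0.683%, SD, n = 3, two-sided exact permutation p = 0.1, the smallest that 3 against 3 allows). Single genes of the list did not all follow this order, as described below for Bpifa2. Before the challenge the order was the other way round, with 7.07 to 14.5% in WT_se and 2.85 to 6.86% in KO_se. Genes of the mitochondrial genome made up 4.37, 5.84 and 5.17% of WT_DTH counts and 10.05, 15.7 and 5.57% of KO_DTH counts. KO_DTH replicate 3 was the knockout library closest to wild type on both measures. Of 13 fat and muscle genes 8 could be tested and none passed. Plin1 was at 0 and Acta1, Ckm and Adipoq had at most 28 counts in any challenged library, while the muscle genes Mylpf, Tnnt3 and Atp2a1 had 53 to 246 counts, at overlapping levels. The fat cell and endothelial gene Fabp4 was at 0.864, 1.54 and 1.56 CPM (counts per 1000000) in WT_DTH and 3.1, 6.79 and 1.64 CPM in KO_DTH (log2 difference 1.53 ± 0.49, SE; edgeR adjusted p = 0.166), and its estimate was -0.70 with a salivary score in the model. The share of each genotype difference that goes with gland RNA was not tested beyond the fits with a salivary score given below.

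Of the genes tested, 120 differed between KO_DTH and WT_DTH (0.599%; edgeR quasi-likelihood test, Benjamini-Hochberg adjusted p under 0.05). Of these 103 were higher in the knockout (0.514% of the genes tested) and 17 were lower (0.0849%). The rises were large, 97 of 103 exceeding 2-fold with a median of 2.41 on the log2 scale, whereas 5 of the 17 falls did. In all 120 genes the 3 knockout libraries lay apart from the 3 wild-type libraries, which was the case for 18.8% of all genes tested. The 120 were picked by a test on these same libraries, so their separation was largely built in. In the sensitized state 1035 genes differed (5.17%), 754 higher (3.76%) and 281 lower (1.4%) in the knockout. Split by what they did there, the 103 risers fell into unlike sets. For 31 the estimate was above 0 also in sensitized nodes, and 25 of them passed the test there. For the other 72 it was below 0, and 7 of them were called lower in the sensitized knockout. The first set holds the γδ T cell and type 17 genes, IgA and short runs of neighbouring genes, and the second holds the gland epithelial genes Krt8, Krt18 and Elf5. Of the 17 genes lower after challenge 7 were also called lower before it and none was called higher there.

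**Figure D1:**
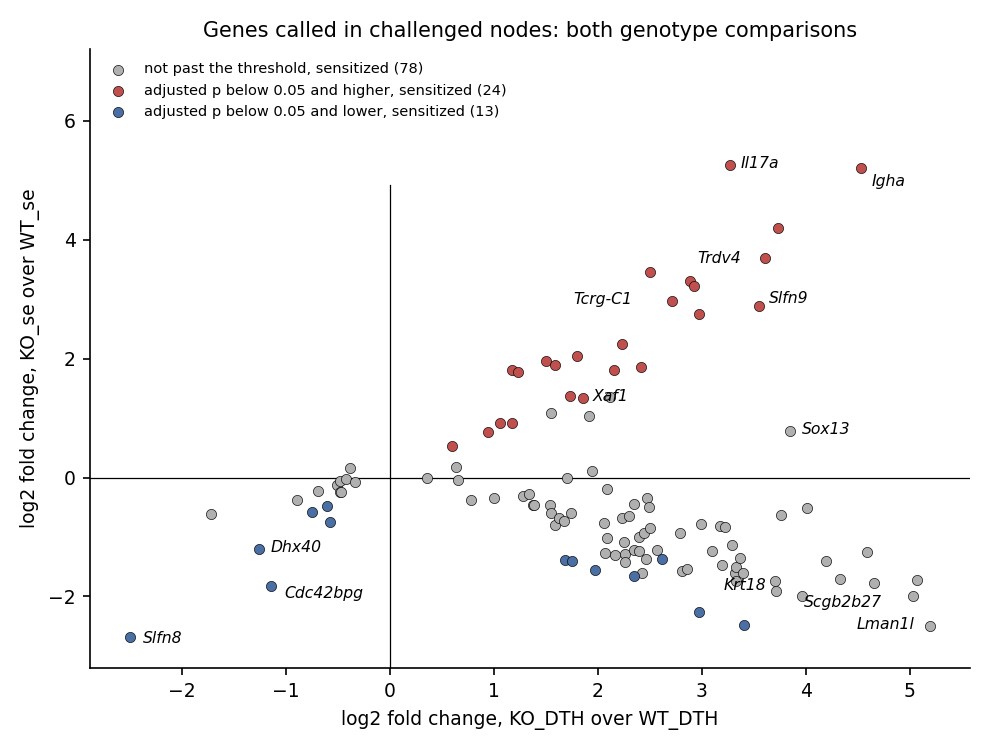
Log2 fold change of knockout over wild type after challenge (x axis) against that before challenge (y axis) for genes past the threshold after challenge; 5 genes with 0 counts throughout a group are not drawn. Colours give the call in sensitized nodes: Il17a, Igha, Slfn9 and the T cell receptor genes sit at the upper right, Slfn8 and Dhx40 at the lower left, and gland genes such as Krt18 and Scgb2b27 at the lower right.

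A test of the difference between the genotype effects of both states passed for 422 genes (2.11%). It passed for 72 of the 120 genes called after challenge. Of these 69 were among the 72 risers that were below 0 before challenge. The others were Il17a, Sox13 and the transcriptional repressor gene Rest. The count of 422 hung on single libraries, being 0 without WT_DTH replicate 3 (3105 genes at unadjusted p under 0.05), 3 and 47 without KO_DTH replicates 1 and 2, 118 and 238 without WT_DTH replicates 1 and 2, and 830 without KO_DTH replicate 3. When a per-library salivary score was added to the model, all 120 genes had the same direction but only Slfn9 passed. Standard errors were larger with the added term. The score was -2.11 to -1.73 in WT_DTH and 0.498 to 2.80 in KO_DTH, without overlap. Within the challenged libraries it thus ran alongside genotype, and fits with it cannot cleanly separate gland RNA from genotype. The median rise of the 31 genes above 0 in both states went from 2.12 (median SE 0.30) to 1.99 (median SE 0.56), and that of the 72 others from 2.47 (median SE 0.46) to 1.09 (median SE 0.77). KO_DTH replicate 3, the knockout library with the smallest salivary share, was the lowest of the 3 knockout libraries in 89 of the 103 risers. It was so in 23 of the 31 above 0 in both states and in 66 of the 72 others. Without it 471 genes passed. Without any other single challenged library 14 to 35 did, fewest without WT_DTH replicate 1, and 13 genes passed whichever library was left out.

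The effector cytokine of the study, Il17a, was at 0.637, 0.606 and 1.07 CPM in WT_DTH and at 9.12, 6.94 and 6.46 CPM in KO_DTH. The lowest knockout library was thus well above the highest wild-type library. The log2 difference was 3.27 ± 0.33 (SE; edgeR adjusted p = 0.000819), a 9.65-fold higher level. Il17a passed without any one of the 6 libraries, with log2 differences of 3.08 to 3.56. With the salivary score in the model the difference was 3.19 and did not pass.

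Before the challenge Il17a was already higher in the knockout, at 13.9, 21.2 and 29.1 CPM in KO_se against 0.345, 0.696 and 0.619 CPM in WT_se. The genotype difference was smaller after challenge than before it by 1.99 ± 0.46 on the log2 scale (edgeR adjusted p = 0.0476 for the difference). This call was lost with any one challenged library left out (adjusted p = 0.0525 to 0.117, values of -1.71 to -2.19) and with the replicate block (0.0721). Levels in KO_DTH lay below those in KO_se, while the WT_DTH and WT_se ranges overlapped.

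A list of 19 tested type 17 cytokines, receptors and regulators had a median of 0.21, beside 0.01 over all genes tested. Of the 19 genes 5 rose, against 0.514% of all genes tested, and none fell. Beside Il17a these included Il17re, a receptor subunit for IL-17C (log2 difference 1.74 ± 0.34, edgeR adjusted p = 0.0422), Sox13, a transcription factor of IL-17-committed γδ T cells, and 5830411N06Rik (Scart2), a scavenger receptor found on such cells. Sox13 and 5830411N06Rik, which are also counted in the γδ T cell list below, had log2 differences of 3.85 ± 0.56 and 1.50 ± 0.22 (edgeR adjusted p = 0.0139 for both). The calls of these 3 were lost without WT_DTH replicate 1 (adjusted p = 0.156 for Il17re and 0.103 for the others), that of 5830411N06Rik also without WT_DTH replicate 2, that of Sox13 without WT_DTH replicate 3, and that of Il17re without any library but KO_DTH replicate 3. Il17f, the close relative of Il17a, was at 0.705, 1.27 and 2.14 CPM in WT_DTH and 3.4, 3.04 and 3.52 CPM in KO_DTH. Its libraries did not overlap, but the log2 difference of 1.26 ± 0.48 did not pass (edgeR adjusted p = 0.241). The IL-23 receptor gene Il23r had 1.01 ± 0.35 (adjusted p = 0.2). For Il22, another type 17 cytokine, the estimate was -0.58 ± 0.68 on 8 to 64 counts per library, and for the chemokine receptor gene Ccr6 it was -0.05 ± 0.27 (edgeR adjusted p = 0.8 and 0.976). No difference in Il22 or Ccr6 was thus detectable in the libraries in which Il17a was higher, and the sign of both estimates changed with the salivary score in the model (0.60 and 0.37).

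Genes of γδ T cells made up the list with most of its members past the threshold, 9 of 13 tested, all higher, against 0.514% of all genes. The list's median was 1.80, and all 13 estimates were above 0. The γ-chain constant gene Tcrg-C1 was at 2.64, 2.5 and 3.04 CPM in WT_DTH and 24.6, 16.4 and 12.8 CPM in KO_DTH. The wild-type libraries were close together, and the fitted level in the knockout was 6.57-fold higher (log2 difference 2.72 ± 0.25, edgeR adjusted p = 0.000381). Cd163l1 (Scart1), a scavenger receptor carried by IL-17-producing γδ T cells, was at 10.9, 5.86 and 8.35 CPM against 106, 48.4 and 35.5 CPM (2.92 ± 0.36, edgeR adjusted p = 0.00396). The δ-chain constant gene Trdc, shared by all γδ T cells, was at 14.8, 13.1 and 12.8 CPM against 54.6, 41.2 and 26.9 CPM. Its rise was smaller than those of Tcrg-C1 and Cd163l1, at 1.59 ± 0.23 (edgeR adjusted p = 0.0121).

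The receptor variable segments of the list that passed were Trdv4 (3.61 ± 0.54) and Tcrg-V6 (3.74 ± 0.75), the second on few counts with WT_DTH at 0.091 to 0.257 CPM. The constant genes Tcrg-C2 (1.80 ± 0.29) and Tcrg-C4 (1.18 ± 0.23) rose as well. Constant genes of this locus are close copies, so reads may be split among them. Zbtb16, a transcription factor gene of innate-like T cells, was at 1.71, 1.34 and 1.99 CPM in WT_DTH and 6.91, 4.29 and 2.34 CPM in KO_DTH and did not pass (1.43 ± 0.36, edgeR adjusted p = 0.0882). Tcrg-C1 and Cd163l1 passed without any one library. The calls of Trdc, Trdv4, Tcrg-C2, Tcrg-C4 and Tcrg-V6 were lost with WT_DTH replicate 1 or replicate 2 left out (edgeR adjusted p = 0.0616 to 0.201, log2 differences of 1.01 to 4.40). Those of Trdc, Tcrg-C4 and Tcrg-V6 were also lost without WT_DTH replicate 3, and those of Tcrg-C2, Tcrg-C4 and Tcrg-V6 without KO_DTH replicate 1 or replicate 2. As a share of all counts the list took 0.0218, 0.0169 and 0.0225% in WT_DTH and 0.0416, 0.0272 and 0.0317% in KO_DTH (two-sided exact permutation p = 0.1). In tissue RNA, more cells of a type and more RNA per cell cannot be told apart.

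Before challenge 10 of the 13 γδ genes and 11 of the 19 type 17 genes, lists that share members, were called higher in the knockout and none lower. Of all genes tested 3.76% were called higher there. The gland share was then lower in the knockout, and its part in these calls was not tested further. With the salivary score in the model 16 of all genes passed before challenge, against 1035 without it. Of the genes of either list called after challenge, Sox13 alone was not called before it. Sox13 was at 0.933, 1.08 and 0.404 CPM in WT_DTH and 16.1, 13.2 and 5.42 CPM in KO_DTH. In sensitized nodes it was at 3.77, 3.35 and 11.2 CPM in WT_se and 7.54, 11.1 and 12.8 CPM in KO_se. Its genotype difference was larger after challenge by 3.07 ± 0.73 (edgeR adjusted p = 0.0495 for the difference), a call lost without any challenged library but KO_DTH replicate 3 (adjusted p = 0.0702 to 0.121). The value was 1.60 ± 1.62 with the salivary score in the model and 0.91 ± 1.575 with 2 principal components of the salivary list. Neither passed, and the part of gland RNA was not tested further.

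Other T helper programmes gave no call. As 0.599% of all genes tested were called, lists of 13 to 15 genes would often hold none. Of the type 2 cytokine genes, Il4 had 3 to 26 counts per challenged library and Il13 10 to 48, and both overlapped between groups (-0.52 ± 1.28 and -0.41 ± 0.58). Gata3, the type 2 master regulator, was at -0.03 ± 0.17, and the cytokine gene Il10 at -0.37 ± 0.25 (edgeR adjusted p = 0.582 to 0.971 for the 4 genes). The sign of Il4, Il13 and Gata3 depended on the setting. None of 15 tested Th1, NK and cytotoxic genes passed. Ifng was at 6.98, 3.73 and 7.73 CPM in WT_DTH and 4.3, 5.93 and 4.19 CPM in KO_DTH, overlapping ranges (-0.35 ± 0.31, edgeR adjusted p = 0.7), and Tbx21, the Th1 master regulator, gave -0.12 ± 0.22. None of 13 regulatory T cell and checkpoint genes passed, with Foxp3, the regulatory T cell factor, at 0.08 ± 0.12. The signs of these small Tbx21 and Foxp3 estimates depended on the setting. In the list of type 2, mast cell and basophil genes all 15 tested estimates were below 0 with a median of -0.68, none past the threshold. The list's median was -0.29 with the salivary score in the model and 0.34 with 2 salivary components (principal components of the salivary list) in its place. The mast cell protease genes Cpa3 (-1.26 ± 0.38), Tpsb2 (-1.04 ± 0.33) and Mcpt4 (-1.0 ± 0.35) had the smallest p of that list (edgeR adjusted p = 0.139, 0.161 and 0.211). WT_DTH replicate 1 weighed on these values: Cpa3 was at 13.3 CPM there and at 5.4 and 3.34 CPM in the others, and without that library its estimate was -0.55.

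Igha, the constant region of IgA, was the only immunoglobulin constant gene of 13 tested to pass. It was at 5.82, 1.8 and 3.57 CPM in WT_DTH and 34.2, 142 and 80.2 CPM in KO_DTH, 23.1-fold higher (log2 difference 4.53 ± 0.48, edgeR adjusted p = 0.00125), and passed without any one library. IgA plasma cells also reside in salivary glands, and the gland share was higher in the same libraries. In sensitized nodes, where the gland share was lower in the knockout, Igha was at 6.71 to 7.79 CPM in WT_se and 224 to 282 CPM in KO_se. With the salivary score in the model the challenged difference was 3.37, and the part of gland RNA in it was not tested further. For the other 12 constant genes the libraries of the groups overlapped. Before challenge 9 of the 13 were called higher in the knockout, against 3.76% of all genes tested. None of 16 plasma cell genes and none of 14 germinal centre and follicular helper genes passed, beside 0.599% of all genes tested.

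Of 30 cell cycle genes 29 had estimates above 0, with a median of 0.57, but Ube2c alone passed, beside 0.599% of all genes tested. The median was 0.27 with the salivary score in the model and 0.06 with 2 salivary components. Ube2c, which directs mitotic ubiquitination, was at 2.8, 4.41 and 5.24 CPM in WT_DTH and 10.6, 9.73 and 8.87 CPM in KO_DTH (1.23 ± 0.24, edgeR adjusted p = 0.047). Its call was lost when any one library except KO_DTH replicate 3 was left out (adjusted p = 0.0629 to 0.189). Before challenge 27 of the 30 were called higher in the knockout, against 3.76% of all genes tested, with a median of 1.45 for the list.

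The smallest p-values belonged to neighbouring genes of the schlafen family. Slfn9, which like its relatives is linked to lymphocyte quiescence and antiviral defence, was at 10.5, 8.22 and 9.81 CPM in WT_DTH and 119, 120 and 95.5 CPM in KO_DTH. The groups were far apart (log2 difference 3.55 ± 0.15, edgeR adjusted p = 1.53e-07), and Slfn9 was the single gene past the threshold in all 18 other settings run. Its neighbour and close relative Slfn8 went the other way, at 102, 95.8 and 77.9 CPM in WT_DTH and 17.9, 15.4 and 15.4 CPM in KO_DTH (-2.50 ± 0.18, edgeR adjusted p = 5.04e-05). Slfn8 and Slfn9 are near copies of each other, so their counts depend on how reads were shared between them. None of the other 6 schlafen genes tested passed, beside 0.599% of all genes tested.

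Naip6, one of the NAIP sensors that pass bacterial flagellin on to the inflammasome, had 0 counts in the 3 WT_DTH libraries and 394, 247 and 303 in KO_DTH. Taking 3 counts over the wild-type group as the floor, it was at least 366-fold higher in the knockout (edgeR adjusted p = 0.000328). The same was seen before challenge, with 0 to 4 counts in WT_se and 205 to 312 in KO_se. Naip genes are also near copies, so reads may be shared among them. Nlrp1a, an inflammasome sensor on chromosome 11, was at 1.96, 1.82 and 0.914 CPM in WT_DTH and at 0 in every KO_DTH library, and did not pass (edgeR adjusted p = 0.0728). No other of the 18 inflammasome genes tested passed, beside 0.599% of all genes tested. Nlrp1a, like some genes further below, was picked for mention after its values were seen.

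Chromosome 11, which carries Mir451a, held 18 of the 120 differing genes. That is 1.25% of its 1444 tested genes, against 0.561% of the 17997 tested genes assigned to other chromosomes. Of these 18, 6 differed the same way in sensitized nodes: Xaf1 94 tested genes before Mir451a, then Slfn9, Slfn8, AA465934, Dhx40 and Trim25 at 74, 75, 85, 136 and 172 tested genes after it. On the other chromosomes, where 92 genes were higher and 9 lower, 25 differed the same way in both states. Xaf1, an interferon-induced gene, was at 46.9, 41.5 and 53.8 CPM in WT_DTH and 176, 198 and 140 CPM in KO_DTH (1.85 ± 0.26, edgeR adjusted p = 0.012). Xaf1 was the only one of 25 type I interferon genes to pass, beside 0.599% of all genes tested, and the median of that list was 0.11. It was -0.37 with the salivary score in the model and -0.31 with KO_DTH replicate 3 as the only challenged knockout library. AA465934 was at 0.478, 1.06 and 0.703 CPM against 5.39, 6.25 and 6.2 CPM (2.98 ± 0.32, edgeR adjusted p = 0.00132).

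Dhx40, an RNA helicase gene, was at 66.8, 69.2 and 64.5 CPM in WT_DTH and 28.6, 24.8 and 30.2 CPM in KO_DTH (-1.26 ± 0.11, edgeR adjusted p = 0.000213). Trim25, the ubiquitin ligase of the RIG-I pathway, was at 389, 297 and 344 CPM against 205, 211 and 197 CPM (-0.75 ± 0.13, edgeR adjusted p = 0.0361). Without WT_DTH replicate 1 the adjusted p was 0.103 for Xaf1 and 0.138 for Trim25. The call of Xaf1 was also lost without WT_DTH replicate 2, and that of Trim25 without WT_DTH replicate 3 or either of KO_DTH replicates 1 and 2, whereas Slfn8, Slfn9, AA465934 and Dhx40 passed whichever library was left out. Further genes lower on this chromosome were Ccl6, a myeloid chemokine (-0.90 ± 0.16), Cltc, the clathrin heavy chain (-0.48 ± 0.07), Slc16a6 (-0.51 ± 0.09) and Rabep1, an endosomal Rab5 effector (-0.47 ± 0.09). None of these passed in sensitized nodes. Their calls were lost without WT_DTH replicate 1 or KO_DTH replicate 1 (adjusted p = 0.0719 to 0.15), and for all but Ccl6 also without KO_DTH replicate 2. The other risers on the chromosome were Lgalsl (1.92 ± 0.29), Tmem98 (3.23 ± 0.49), Nr1d1, a circadian repressor (1.54 ± 0.28), 1 predicted gene, and the epithelial genes Cldn7, Jup, Sox9 and Itgb4. Calls of Nr1d1, Cldn7, Jup, Sox9 and Itgb4 were lost without any library but KO_DTH replicate 3 (edgeR adjusted p = 0.0527 to 0.198). That of Lgalsl was lost without WT_DTH replicate 1 or 3 or KO_DTH replicate 1 (0.0601 to 0.1035). Tmem98 did not pass without any one of the WT_DTH libraries (0.06 to 0.116).

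**Figure D2:**
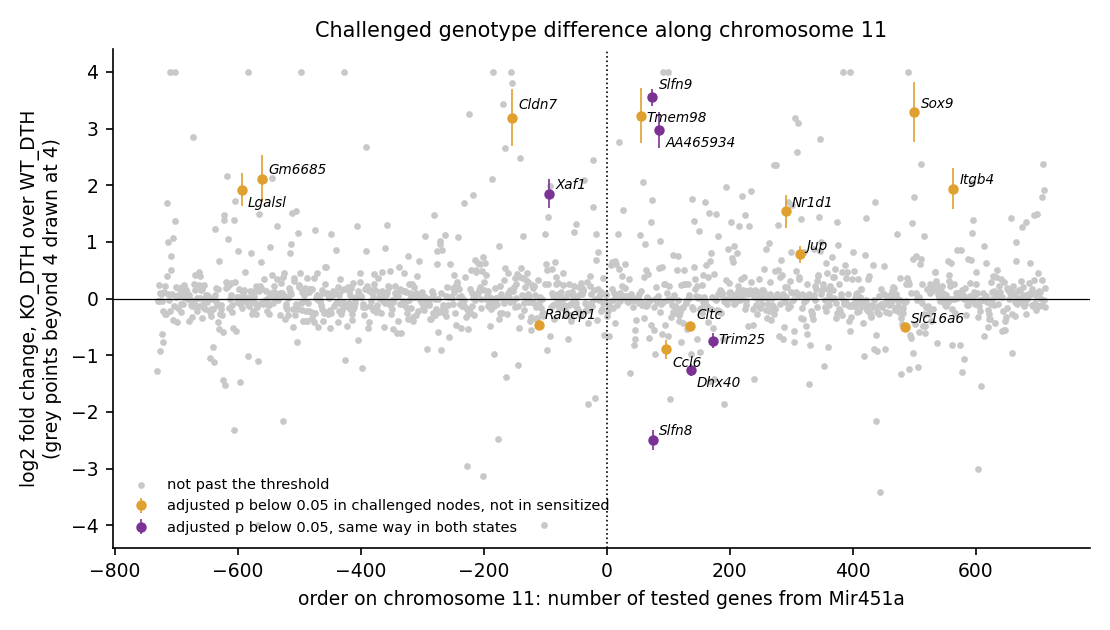
Log2 fold change of KO_DTH over WT_DTH (y axis, bars ± SE) for the tested genes of chromosome 11 in their order from Mir451a (x axis, number of tested genes; GENCODE M21 order). Genes that differ the same way in both states (purple, 6) lie between 94 tested genes before and 172 after Mir451a. The others (orange, 12) are spread along the chromosome, and Tmem98, Ccl6 and Cltc among them lie in that same stretch.

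A second group of closely placed genes was seen on chromosome 12. Fam177a, Srp54b, 1700047I17Rik2 and Srp54c lie at positions 207, 209, 210 and 212 in the order of the tested genes of that chromosome. All of them rose in both states, while the tested genes in between did not pass. Srp54c, a copy of the signal recognition particle subunit gene, was at 30.5, 30.9 and 30.4 CPM in WT_DTH and 47.1, 45.9 and 46 CPM in KO_DTH. The libraries of each group differed little, and a rise of 0.60 ± 0.08 passed (edgeR adjusted p = 0.00396). Srp54b rose by 0.94 ± 0.11, Fam177a by 1.06 ± 0.21 and 1700047I17Rik2 by 1.17 ± 0.18. These genes are near copies within a duplicated stretch, so how reads were shared among them is uncertain. Srp54b and Srp54c passed without any one library, while Fam177a and 1700047I17Rik2 did not pass without any one of the WT_DTH libraries (adjusted p = 0.0617 to 0.194), nor Fam177a without KO_DTH replicate 1 (0.121).

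Outside chromosome 11, and apart from a predicted gene, the largest fall of a gene with counts in both groups was that of Cdc42bpg, a Cdc42-binding kinase gene on chromosome 19. It was at 35, 33 and 35.7 CPM in WT_DTH and 16.3, 16.4 and 14.4 CPM in KO_DTH (-1.14 ± 0.13, edgeR adjusted p = 0.00144), and was lower before challenge as well (-1.83). It passed without any one library. The remaining falls were modest. They included Coq8a, a coenzyme Q synthesis gene (-0.69 ± 0.12), Zyg11b, a ubiquitin ligase substrate receptor (-0.60 ± 0.11), and Kdm2b, a histone demethylase (-0.48 ± 0.08). Taf4b, a subunit of a TFIID complex, was lower in both states (-0.57 ± 0.12 after challenge, edgeR adjusted p = 0.048, and -0.75 before it). Its call was lost without WT_DTH replicate 1 or 2 or KO_DTH replicate 1 or 2 (adjusted p = 0.111 to 0.144). Inpp5d, which encodes the phosphatase SHIP1 that restrains PI3K signalling in leukocytes, was at 366, 319 and 336 CPM in WT_DTH and 252, 248 and 263 CPM in KO_DTH (-0.42 ± 0.08, edgeR adjusted p = 0.0422). Nfkb1, the p105/p50 subunit of NF-κB, was at 334, 358 and 342 CPM against 280, 264 and 277 CPM (-0.33 ± 0.07, edgeR adjusted p = 0.0493).
These libraries were tight within each group, and the groups did not overlap. Rest (-0.38 ± 0.07) was among the genes whose genotype difference was not the same in both states, being 0.16 before challenge (edgeR adjusted p = 0.0262 for the difference, and 0.0556 to 0.0683 without WT_DTH replicate 3 or KO_DTH replicates 1 or 2). The calls of Coq8a, Zyg11b, Kdm2b, Inpp5d, Nfkb1 and Rest were all lost without WT_DTH replicate 1 (adjusted p = 0.103 to 0.155), and also without KO_DTH replicate 1 or replicate 2 (0.0556 to 0.189). When the scaling left out salivary, mitochondrial, erythroid and immunoglobulin genes, all 6 passed (edgeR adjusted p = 0.0201 to 0.0437). With the salivary score in the model none of them passed. Their estimates were then -0.78 for Coq8a, -0.30 for Zyg11b, -0.47 for Kdm2b, -0.24 for Inpp5d, -0.28 for Nfkb1 and -0.27 for Rest. The part of gland RNA in these falls was not tested further.

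The risers that were below 0 before challenge include many genes of gland epithelium. Krt18, a keratin of simple epithelia, was at 6.48, 9.6 and 7.05 CPM in WT_DTH and 88, 106 and 38.2 CPM in KO_DTH (3.33 ± 0.50, edgeR adjusted p = 0.0159). Its partner Krt8 was at 4.96, 9.46 and 6.66 CPM against 95.4, 85.6 and 41.6 CPM (3.40 ± 0.68, edgeR adjusted p = 0.0471). In both, KO_DTH replicate 3 was the lowest knockout library, as it was in gland share and in most risers of either set. Before challenge the same genes leaned to the other side, Krt18 by -1.50 and Krt8 by -1.60, and the difference between states passed for both.

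With them rose Elf5, a transcription factor of secretory epithelium (2.26 ± 0.44), the claudin genes Cldn10 (3.10 ± 0.57) and Cldn7 (3.19 ± 0.50), and Sox9, a duct progenitor factor (3.29 ± 0.53). Ccl28, the chemokine by which mucosal glands attract IgA plasma cells, was at 0.864, 1.96 and 1.34 CPM in WT_DTH and 25.1, 18.3 and 11.2 CPM in KO_DTH (3.70 ± 0.72, edgeR adjusted p = 0.0427). Scgb2b27, a secretoglobin, was at 21.5, 33 and 18.6 CPM against 637, 1357 and 404 CPM (5.03 ± 0.94, edgeR adjusted p = 0.0411). Lman1l (5.19 ± 1.05), Hspb8 (5.07 ± 0.84), Mgat3 (4.66 ± 0.81), Epha5 (4.19 ± 0.78), Slc6a14 (3.97 ± 0.69) and Palmd (3.71 ± 0.61) were among the largest rises. So were Arhgef16 (4.59 ± 0.80), Itprid1 (4.01 ± 0.81), Sowahb (3.76 ± 0.67), Frmpd1 (3.41 ± 0.67) and the ephrin gene Efna1 (3.37 ± 0.63). Sox17, a transcription factor gene of endothelium, had 0 counts in the 3 WT_DTH libraries and 14, 35 and 22 in KO_DTH. With a floor of 3 counts over the wild-type group it was at least 28.8-fold higher (edgeR adjusted p = 0.047). All of these were below 0 before challenge. The calls of Sox17, Arhgef16, Itprid1, Frmpd1 and Efna1 were lost without any library but KO_DTH replicate 3 (adjusted p = 0.0626 to 0.19). So were those of Lman1l, Hspb8, Mgat3, Epha5, Slc6a14, Palmd, Cldn7 and Sox9 (edgeR adjusted p = 0.0527 to 0.2). That of Sowahb was lost without WT_DTH replicate 1 or 3 or KO_DTH replicate 1 or 2 (0.0834 to 0.155). With the salivary score in the model the estimates of Krt18, Krt8, Elf5, Cldn10 and Scgb2b27 were 1.58, 1.41, 0.84, 1.61 and 1.18, and none passed. Their calls, like that of Ccl28, also depended on WT_DTH replicate 1, without which the adjusted p was 0.116 to 0.201, and on every other library except KO_DTH replicate 3 (0.0515 to 0.147).

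The secretory products themselves behaved in several ways. Of the 21 tested genes of the salivary list 4 passed, beside 0.599% of all genes tested (median 3.33, and -0.15 with the score that is built from this list). The parotid products Bpifa2 and Amy1 (salivary amylase) overlapped between groups: Bpifa2 was at 11580, 17900 and 10980 CPM in WT_DTH and 19940, 43620 and 7995 CPM in KO_DTH, with KO_DTH replicate 3 below all wild-type libraries. Demilune cell products did not overlap at all. Dcpp3 was at 22.3, 69 and 52.1 CPM in WT_DTH and 24710, 13780 and 10340 CPM in KO_DTH, and Dcpp2 at 12.2 to 25.8 against 9113 to 21910 CPM. In spite of such ratios their log2 differences of 8.41 ± 1.81 and 9.42 ± 2.04 missed the threshold (edgeR adjusted p = 0.0566 for both), as did Dcpp1 (4.21 ± 0.88, adjusted p = 0.0543). Without KO_DTH replicate 3 all 3 Dcpp genes passed, at adjusted p = 0.0332 to 0.0406. Prol1, a product of the submandibular gland, was at 1.85, 2580 and 136 CPM in the 3 KO_DTH libraries and at 1.83 to 3.21 CPM in WT_DTH. The gland RNA of the knockout libraries was therefore not of a single make-up: Dcpp genes were high in all 3, Prol1 mainly in replicate 2, and Bpifa2 in replicates 1 and 2. The Dcpp genes are near copies of each other, so reads may be divided among them.

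**Figure D3:**
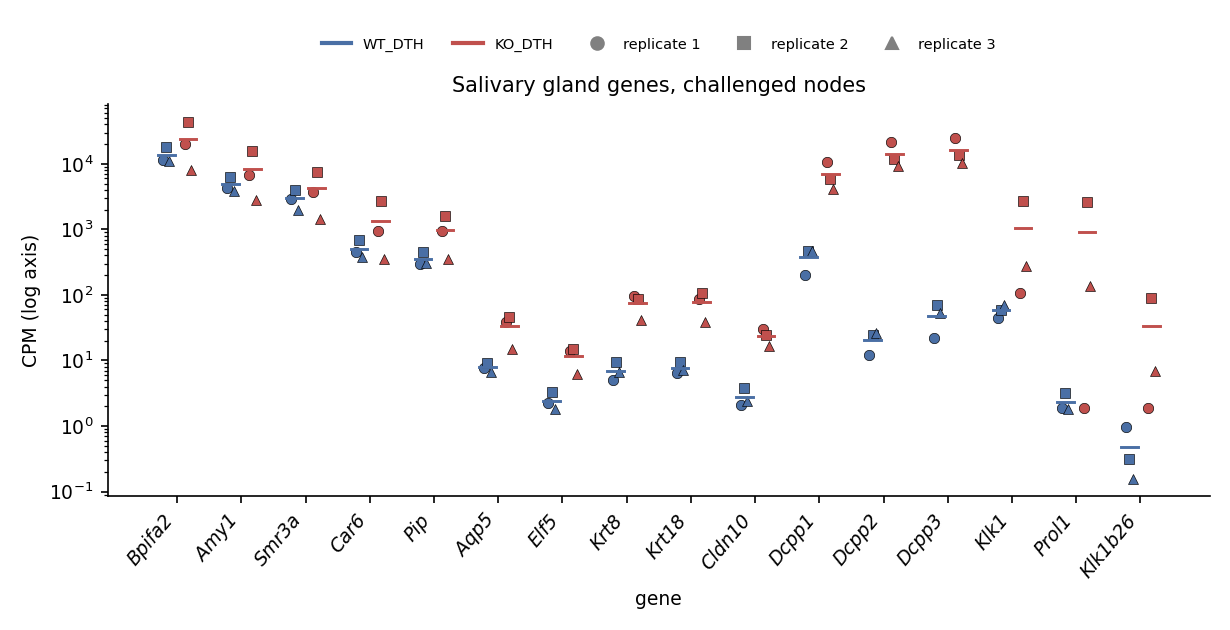
CPM of salivary gland genes in each challenged library on a log axis; symbols give the replicate and bars the group mean of 3. Bpifa2 and Amy1 overlap between the groups, whereas for Dcpp1, Dcpp2 and Dcpp3 every knockout library lies far above every wild-type library.

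The metallothionein genes Mt1 (1.74 ± 0.24, edgeR adjusted p = 0.0106) and Mt2 (2.49 ± 0.48, adjusted p = 0.0422) passed. None of the other 8 genes of the metallothionein and glucocorticoid list did, beside 0.599% of all genes tested. Mt1 was at 8.98, 10.2 and 8.86 CPM in WT_DTH and 31.8, 42.6 and 19.5 CPM in KO_DTH. Both had estimates below 0 before challenge, and both calls were lost without WT_DTH replicate 1 (adjusted p = 0.0997 and 0.19). Mt1 did not pass without WT_DTH replicate 3 either (0.0511), nor Mt2 without any library but KO_DTH replicate 3; without KO_DTH replicate 2 the Mt2 estimate was 1.60. Mt1 was at 0.82 and Mt2 at 0.12 with the salivary score in the model. Vwf, the endothelial von Willebrand factor, was at 0.682, 0.753 and 0.58 CPM against 3.44, 2.89 and 2.27 CPM (2.09 ± 0.28, edgeR adjusted p = 0.00774). Acta2, the actin of smooth muscle and of the myoepithelial cells that surround gland acini, was at 0.591, 1.03 and 0.844 CPM against 2.81, 8.55 and 3.9 CPM (2.62 ± 0.39, edgeR adjusted p = 0.0143). Without WT_DTH replicate 1 the adjusted p was 0.0646 for Vwf and 0.103 for Acta2, and 0.056 for Acta2 without WT_DTH replicate 3. Vwf was at 2.12 and Acta2 at 0.98 with that score in the model, neither past the threshold. None of 17 stromal and high endothelial genes passed, beside 0.599% of all genes tested, though 14 estimates were above 0 and the median was 0.72. That median was -0.03 with the salivary score in the model, 0.20 with 2 salivary components and 0.15 with KO_DTH replicate 3 as the only challenged knockout library. All 13 protein-coding mitochondrial genes had estimates above 0 (median 1.34) and none passed, mt-Nd3 being nearest (1.59 ± 0.34, edgeR adjusted p = 0.0554). Of all 37 tested genes of the mitochondrial chromosome 4 passed, all of them tRNA genes and higher, beside 0.599% of all genes tested. With the salivary score in the model the median of these 13 genes was -0.07, and mt-Nd3 passed without KO_DTH replicate 3 (adjusted p = 0.00484).

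Most immune lists showed no call in either direction. That was so for 14 B cell genes (median -0.11), 18 MHC class I genes (0.05), 11 MHC class II genes (-0.09), 18 genes of naive and resting T cells (0.08), 22 interferon-gamma response genes (0.01), 16 monocyte genes (-0.17), 17 neutrophil genes (-0.17), 16 dendritic cell genes (0.03), 15 chemokine genes (0.09) and 13 genes of the epithelial and acute-phase response to IL-17 (0.09). With 0.599% of all genes tested called, lists this short would often hold no call. The medians of these lists depended on the gland term. They were, with the salivary score in the model, 0.99 for the neutrophil list, 1.08 for the IL-17 response list, 0.70 for the chemokine list and 0.29 for the dendritic cell list, while the B cell and MHC class II lists were at 0.05 and 0.06 and the monocyte list at -0.03. Among single genes of these lists that did not pass, Satb1, a chromatin organizer of T cells, was at 924, 939.7 and 869.5 CPM in WT_DTH and 694, 696 and 701 CPM in KO_DTH (-0.39 ± 0.10, edgeR adjusted p = 0.0945). The costimulatory receptor gene Cd27 had 0.33 ± 0.09 and the neutrophil chemokine gene Cxcl1 1.20 ± 0.34 (adjusted p = 0.116 and 0.118), and neither gene's groups overlapped. Siglech, a plasmacytoid dendritic cell gene, had -0.70 ± 0.23, its groups apart as well (edgeR adjusted p = 0.179, and 0.0387 without KO_DTH replicate 3). In lists of sinus macrophage and immediate early genes, neither of which held a call, Mrc1, the macrophage mannose receptor gene, had -1.26 ± 0.34 and the early growth response gene Egr1 0.95 ± 0.25 (edgeR adjusted p = 0.105 and 0.101).

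Before challenge several immune lists leaned higher in the knockout, with 6 of 17 neutrophil genes, 6 of 11 MHC class II genes and 3 of 13 IL-17 response genes called. Of all genes tested 3.76% were called higher there. The sensitized groups also differed in gland share, and 16 of all genes passed there with the salivary score in the model. At unadjusted p under 0.05 the challenged comparison gave 2832 genes, 1735 of them higher, and a list without calls can hold differences too small for this test.

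**Figure D4:**
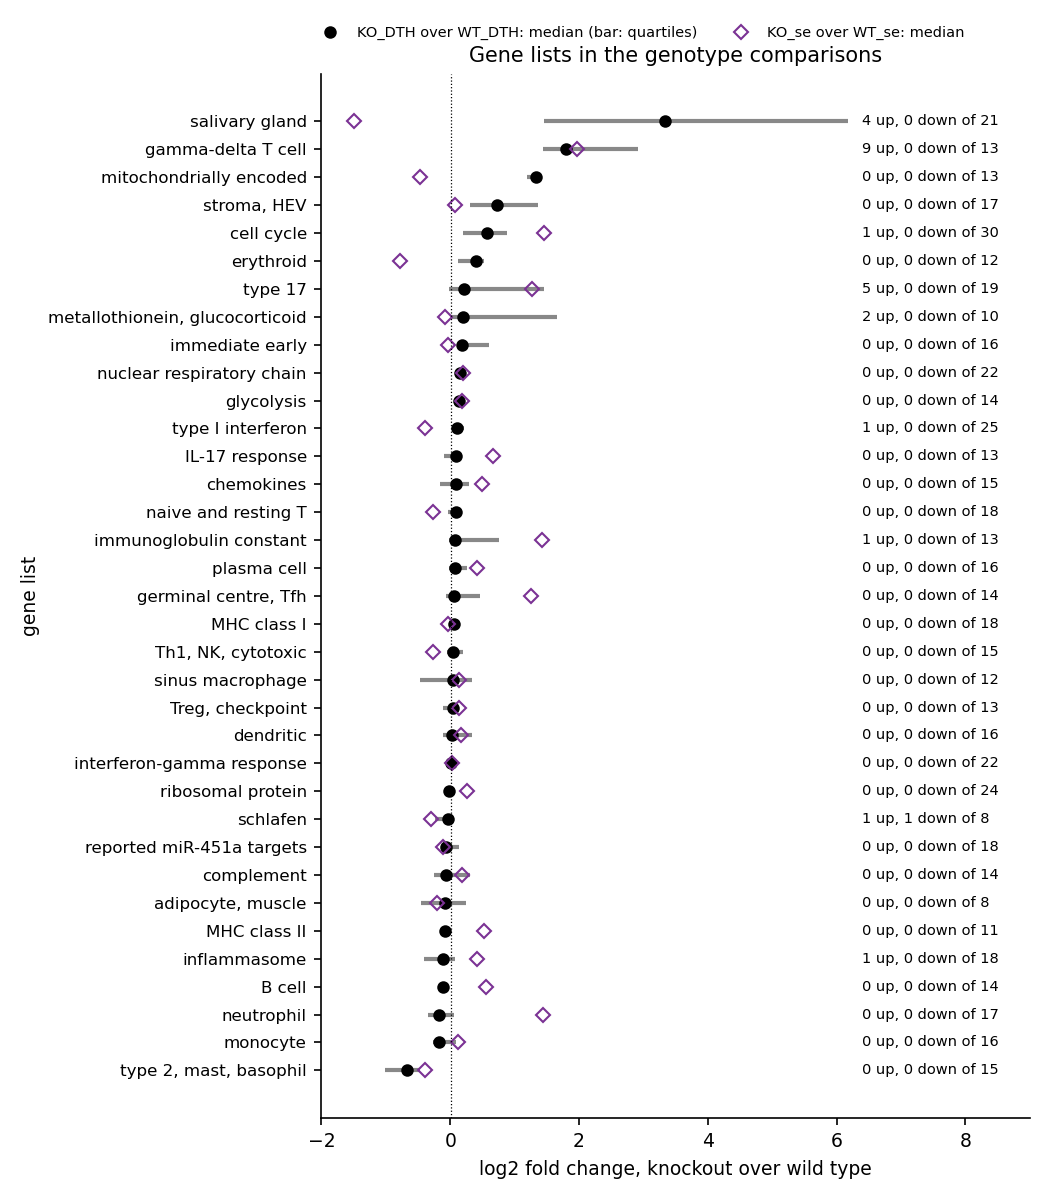
Median log2 fold change of each gene list after challenge (black, bars are quartiles over the list's tested genes) and before it (purple diamonds); the text at the right counts the genes called higher and lower after challenge. The γδ T cell list is high in both states, the salivary and mitochondrial lists are high after challenge and low before it, and most immune lists lie near 0 after challenge.

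Genes reported elsewhere as direct targets of miR-451a gave no call. None of 18 tested passed, and their median was -0.06 (-0.03 with the salivary score in the model). Since 0.599% of all genes tested passed, a list of 18 would often hold no call. Psmb8, whose 3′ UTR site is printed above, was at 224, 227 and 263 CPM in WT_DTH and 294, 274 and 261 CPM in KO_DTH (0.21 ± 0.09, edgeR adjusted p = 0.316), so that KO_DTH replicate 3 fell within the wild-type range. Of the 18 targets 5 held a 7-base seed match (Cab39, Myc, Osr1, Psmb8 and Ywhaz). Across all 14498 tested genes with a searched 3′ UTR, 375 held such a match, and 2 of these were called, Naaladl2 and Parva. That is 0.533% of genes with a match against 0.758% of genes without, with medians of -0.03 and 0.02. Naaladl2 was at 0.114, 0.0734 and 0 CPM in WT_DTH and 1.99, 1.25 and 0.506 CPM in KO_DTH (4.33 ± 0.85, edgeR adjusted p = 0.0438). Parva, which encodes the adhesion protein α-parvin, was at 1.39, 1.45 and 1.28 CPM against 6.83, 6.5 and 2.89 CPM (1.98 ± 0.32, edgeR adjusted p = 0.0198). Both were below 0 in sensitized nodes, where Parva was called lower (-1.56), and both calls were lost without any library but KO_DTH replicate 3 (adjusted p = 0.0658 to 0.138).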

How the data were processed

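Total RNA of mandibular lymph nodes was sequenced as strand-marked libraries, per the labels' protocols. The authors deposited estimated counts per gene made with fastp 0.23.2, HISAT2 2.2.1 and StringTie 2.2.1 on GRCm39, per the submitters' processing notes; all values were whole numbers. Of 56941 genes, 24767 had no count in any library and 4993 had no symbol in the annotation used here (GENCODE M21, used for names and gene order only). Genes were tested with edgeR 4.0.16 (R 4.3.3): TMM scaling, genes kept by filterByExpr at its minimum count of 10, and a quasi-likelihood test with 1 mean per group over all 12 libraries, which lets all groups share 1 estimate of spread with 8 residual degrees of freedom. Adjusted p-values are Benjamini-Hochberg values across the 20034 genes kept, called below 0.05. The test was first checked on simulated counts.

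CPM are TMM-scaled. Log2 fold changes of genes with few counts depend on the prior count. Alternatives were other scalings, filters, DESeq2 1.42.0, the 6 challenged libraries alone, replicate number, sex and salivary covariates, and leaving out libraries. A fit with KO_DTH replicate 3 as the only challenged knockout library was added after seeing the data; its spread is taken from the other groups. The salivary score is the mean log2 CPM of the salivary list, and the 2 salivary components are the leading principal components of that list.

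The members and lists were chosen with earlier results of these data known. The text names fixed cytokine and regulator genes, the 20 largest rises and 15 largest falls among non-overlapping genes with a group mean of at least 20 counts (no predicted genes or variable segments), the list members past the threshold or otherwise up to 3 (for some lists none) of smallest p, and the genes past the threshold on chromosome 11. Dcpp1, Dcpp2, Dcpp3, Prol1, Bpifa2, Amy1, Nlrp1a, Srp54b, Srp54c, Fam177a, 1700047I17Rik2, Zbtb16, Vwf, Acta2 and Parva, and in the closing section A830018L16Rik and BB218582, were added after their values were seen. Seed matches were sought in 3′ UTRs of GENCODE M21 transcripts; miR-451a is from RefSeq. Mir451a was not analysed here, and 1 other item is not reported here.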

Additional observations from a re-analysis of the deposited data

Results flagged for a closer look

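For 72 of the 120 genes past the threshold after challenge, the genotype difference was itself different after challenge from before it, by a test of that difference (edgeR quasi-likelihood test, Benjamini-Hochberg adjusted). Values here are the challenged minus the sensitized log2 difference. Il17a had -1.99 ± 0.46 (SE; adjusted p = 0.0476), and Rest -0.54 ± 0.10 (0.0262), while Sox13 had 3.07 ± 0.73 (0.0495).

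The salivary genes Prol1, Dcpp2, Dcpp3 and Dcpp1, which are not among the 120, passed this test with 14.36, 11.88, 10.83 and 6.19. Among the 120, values were 7.69 for Lman1l, 7.02 for Scgb2b27, 6.80 for Hspb8 and 6.43 for Mgat3. Slc6a14 had 5.96, Palmd 5.62, Epha5 5.60, Ccl28 5.44, Krt8 5.0, Krt18 4.83, Cldn7 4.66, Sox9 4.43, Cldn10 4.34, Elf5 3.33 and Jup 1.16. Frmpd1 had 5.90, Arhgef16 5.85, Efna1 4.73, Itprid1 4.52 and Sowahb 4.39. Sox17, A830018L16Rik and BB218582 had 0 counts in all WT_DTH libraries, so that their fitted values of 9.07, 11.30 and 9.64 depend on the prior count. Genes of other kinds were Naaladl2 with 6.03, Tmem98 with 4.06, Acta2 with 3.99, Parva with 3.54, Mt2 with 2.98, Mt1 with 2.34, Vwf with 2.29 and Nr1d1 with 2.00. The salivary share of counts was higher in the knockout after challenge and lower in it before challenge, and its part in these values was not tested beyond the salivary score fits. With either salivary covariate no gene passed this test.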

How the results depend on the processing

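Against 120 genes, the challenged comparison gave 64 with no filter, 932 with DESeq2, 38 with a replicate block, 1 with either salivary covariate, 264 with sex as covariate, 13 without replicate 2 of both groups (the most gland-rich libraries), 18 with KO_DTH replicate 3 as the only challenged knockout library, and 14 to 471 when 1 library was left out. The difference between states (422) gave 267 with no filter, 1240 with DESeq2, 128 with a replicate block, 5 without both replicates 2, 7 with KO_DTH replicate 3 alone and 0 to 830 with 1 library left out. It gave 0 with the salivary score and 0 with the 2 components (edgeR; 820 and 876 at unadjusted p under 0.05, and 3105 without WT_DTH replicate 3). The sensitized comparison (1035) gave 2301 with DESeq2, 16 with the salivary score and 100 with 2 components. The cause of these shifts was not tested. The salivary score did not overlap between WT_DTH and KO_DTH, so a fit with it can take up part of the genotype difference. The covariate fits also spend residual degrees of freedom.

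Same-numbered challenged libraries correlated at 0.070, 0.067 and 0.078 in their deviations from the group means, each the highest for its library. Pairs of unlike number were at -0.0745 to -0.000883. Same-numbered challenged libraries also shared sex by Xist and Ddx3y. The labels do not say what else a replicate number stands for, so a pairing can be neither assumed nor excluded.

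Some estimates changed sign, none of them past the threshold. With the salivary score and with 2 components respectively these were Il22 (0.60, 0.41), Ccr6 (0.37, 0.29), Tbx21 (0.33, 0.19), Prol1 (-0.15, -2.64), Amy1 (-1.46, -1.27) and Bpifa2 (-1.32, -1.12), with Dcn at -0.068 under the score and Mcpt4 at 0.34 under the components. Il13 was 1.11 and 0.61 and Fabp4 -0.70 and -0.45 in these fits, and Egr1 -0.15 under the components. Without both replicates 2 Gata3 was 0.0364, Ccr6 0.0443 and Tbx21 0.0641. With KO_DTH replicate 3 alone Il4 was 0.41, Il13 0.13, Ccr6 0.45, Amy1 -0.83 and Bpifa2 -0.78. Leaving out 1 library gave -0.43 to 0.14 for Ccr6 (0.0692 without WT_DTH replicate 3, 0.0462 without KO_DTH replicate 1), -0.38 to 0.0642 for Tbx21, -0.0579 to 0.11 for Foxp3, -0.20 to 0.0565 for Gata3 and -0.0379 to 1.19 for Amy1. The salivary share difference of 5.01 percentage points was 4.02 to 6.72 with 1 library left out and 5.88 without mitochondrial counts. With 3 libraries a group, small differences were not detectable.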
